A study of Mus musculus with 4 samples.

Results

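Chemokines and their receptors were followed in mouse cerebellum after deletion of Dicer under a mouse Gfap promoter. The set held 10 genes of 28632 gene names on the array: the ligands Cxcl10, Cxcl9, Ccl5, Ccl2, Cxcl14, Cxcl12, Cxcl16 and Cx3cl1, and the receptors Cxcr3 and Cxcr4. Members were found by matching these names to the gene name of every spot that was not a control spot, which gave 24 spots of 15 probes. Cxcl10 had been picked for its high ratio in these same arrays, and the other members were picked with the results of the comparison known. Their ratios are therefore given as a description of these animals.

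The mutants carried mGfap-Cre (line mGfap-cre 73.12) with Dicer flox/flox, and the controls carried mGfap-Cre with Dicer +/flox, so both genotypes held the Cre transgene and at least 1 floxed allele. RNA was taken from whole cerebella at postnatal day 30, on a mixed strain background. Each of 4 littermate pairs (replicates 1 to 4, independent of each other), 1 mutant and 1 control, shared a 2-colour array, and 500 ng of total RNA was amplified and labelled per channel. The mutant was in Cy5 in pairs 1 and 3 and in Cy3 in pairs 2 and 4.

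Chemokines are small secreted or membrane-bound proteins that attract leukocytes, and in the brain they also guide migrating neurons and carry signals between neurons and microglia. They act through G protein-coupled receptors, while atypical receptors bind them without that coupling and remove them. Cxcl10 and Cxcl9 are neighbours in the genome, are induced by interferons, share the receptor Cxcr3 on activated T cells and NK cells, and can be made by astrocytes and microglia. The Cxcl10 promoter is a textbook case of joint control by interferon-activated factors, which bind interferon-stimulated response elements, and by NF-kappaB.

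Promoter sequences of 7 of the 10 members were found in the RefSeq table of build GRCm38.p6. The 3 shown are those of Cxcl10, the member with the highest ratio, of its neighbour Cxcl9, and of Cxcl14, the member with the lowest ratio. Each is the 250 bases before the annotated start on the gene's own strand, and capitals mark matches to the motifs searched on both strands.
Cxcl10, chr5:92348890-92349139, minus strand: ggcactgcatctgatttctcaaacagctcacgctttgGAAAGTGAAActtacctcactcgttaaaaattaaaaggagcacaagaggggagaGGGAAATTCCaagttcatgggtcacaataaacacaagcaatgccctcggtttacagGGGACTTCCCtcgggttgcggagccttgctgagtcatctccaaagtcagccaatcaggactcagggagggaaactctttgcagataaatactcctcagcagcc
Cxcl9, chr5:92328080-92328329, minus strand: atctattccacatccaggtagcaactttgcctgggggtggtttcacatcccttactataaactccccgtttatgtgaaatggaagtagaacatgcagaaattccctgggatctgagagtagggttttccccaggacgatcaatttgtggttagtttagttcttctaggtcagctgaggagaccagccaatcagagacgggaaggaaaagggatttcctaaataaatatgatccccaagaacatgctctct
Cxcl14, chr13:56296552-56296801, minus strand: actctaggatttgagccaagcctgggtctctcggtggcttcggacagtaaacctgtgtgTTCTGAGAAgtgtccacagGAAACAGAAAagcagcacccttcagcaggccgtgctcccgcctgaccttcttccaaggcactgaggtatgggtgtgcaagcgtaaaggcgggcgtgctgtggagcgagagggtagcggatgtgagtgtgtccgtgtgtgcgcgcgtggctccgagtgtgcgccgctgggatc
The Cxcl10 promoter held the response element core (GAAA, any 2 bases, GAAA) as GAAAGTGAAA, with its first base at -213 from the start. It also held the NF-kappaB consensus as GGGAAATTCC and as GGGACTTCCC, beginning at -159 and -103. The Cxcl14 promoter held the core as GAAACAGAAA at -172, and the STAT site TTCNNNGAA as TTCTGAGAA at -191. Neither these motifs nor the NF-kappaB consensus was found in the promoter windows of Cxcl9, Cxcl12, Cx3cl1, Cxcr3 and Cxcr4. Of 32851 promoter windows of the same length, 2.98% held the core, 3.90% the NF-kappaB consensus and 7.02% the STAT site, and 0.122% held the core together with the NF-kappaB consensus. The matches did not overlap each other.

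The arrays and the tissue were checked first. Of 41174 probes per array, 26397 to 28907 gave a mutant signal well above background and 26289 to 27717 a control signal that did, and no spot was saturated. All 4 granule neuron and all 4 Purkinje neuron markers were above background in every channel, as were the 8 astroglial and 9 microglial markers. Dicer1 gave a log2 ratio of mutant over control of 0.04 ± 0.22 (SD, n = 4 pairs, adjusted p = 0.947). Its other probe gave -0.06 ± 0.18. Where these probes lie with respect to the floxed exons is not known here, so they check nothing about the deletion. In whole tissue, fewer cells of a type and less RNA per cell cannot be told apart, here and in every result that follows. A marker set for neutrophils stood apart in 1 animal: the summed intensity of 3 genes was 17713 in the mutant of pair 1, against 1413 to 2552 in the other mutants and 1755 to 3020 in the controls.

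Of the 10 members, 8 had a probe bright enough to be tested and 2, Cxcl9 and Cxcr3, did not. A probe was tested when either all 4 mutants or all 4 controls read well above background. Of the 8, 2 were called at an adjusted p under 0.05 in limma, Cxcl10 as higher and Cxcl14 as lower in mutants, against 1.03% of 18024 genes (0.588% higher and 0.444% lower). The other 6 were not called. Cxcl10, Ccl5, Ccl2 and Cxcr4 were higher in the mutant of all 4 pairs, a pattern held by 7.75% of all genes, and Cxcl14 and Cx3cl1 were lower in all 4, a pattern held by 7.32%. Intensities below are normalized and linear, and they contain an added offset of 50, so that ratios of dim probes are understated. The offset and the differing probes mean that no member's level was set against another's.

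**Figure D1:**
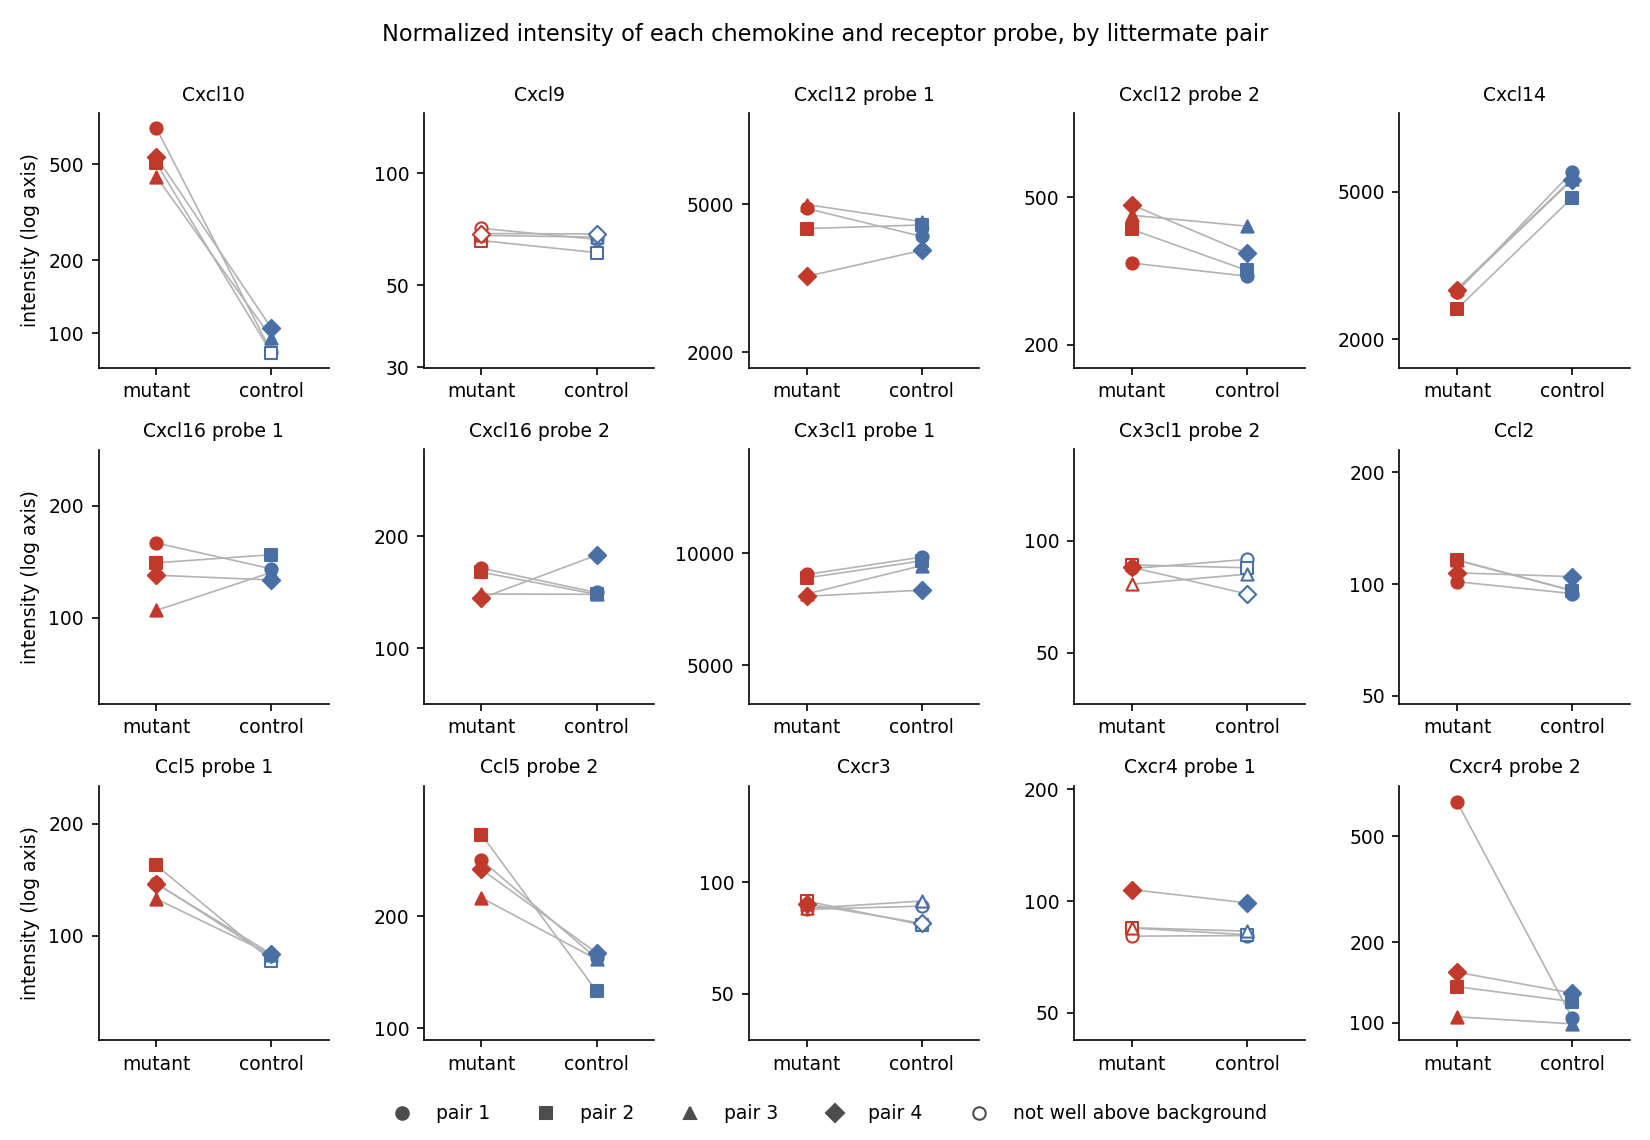
Normalized intensity (log scale) of each of the 15 member probes, with mutants left of controls and a line joining the littermates of each of the 4 pairs; each panel has its own range, open symbols were not well above background, and probes 1 and 2 of a gene are in the order of their names. For Cxcl10 the 4 mutants lie between 444 and 706, all above the 4 controls, which lie between 82.7 and 104.7.

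Cxcl10 was the member with the highest ratio, and the 4 mutants lay far above the 4 controls. Its single probe (A_51_P432641, chr5:92775781-92775840 of build mm9, minus strand) gave intensities of 706, 506, 444 and 537 in the mutants of pairs 1 to 4, against 83.4, 82.7, 95.4 and 104.7 in their control littermates. The groups did not overlap, and each mutant was more than 4 times as bright as its own littermate. The log2 ratios were 3.08, 2.61, 2.22 and 2.36, with a mean of 2.57 ± 0.38 (SD, n = 4 pairs), or 5.93-fold. The 95% interval ran from 2.19 to 2.94 and the adjusted p was 0.00529. Only 2 genes of 18024 had a higher ratio.

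The control level of Cxcl10 was close to the array's background. The probe was well above background in all 4 mutants and in the controls of pairs 3 and 4 only, so the size of the ratio depends on how the dim control signal was treated. With an offset of 10 in place of 50 the log2 ratio was 3.32, and with the scanner software's processed signals it was 4.66. Cxcl10 entered the test through its mutant signal alone, so its adjusted p values are a description too. Keeping outlier-flagged spots in the background fit gave 1.93 with an adjusted p of 0.0580. In that setting the fitted background mean of array 1 went from 8.62 to -729.5 in Cy3 and from -9.40 to -240.7 in Cy5. On the other arrays it hardly moved, and the part of this in the lower ratio was not tested. The adjusted p of Cxcl10 lay between 0.000132 and 0.0430 in the 16 other alternatives that tested it. A filter that required all 8 channels above background left it untested. The mean was 2.65 over the pairs with the mutant in Cy5 and 2.49 over those with the mutant in Cy3.

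Cxcl9, which attracts the same cells as Cxcl10, was not detected. Its probe (A_51_P461665, chr5:92752191-92752250) lies 23530 bases from that of Cxcl10 and was well above background in none of the 8 channels. The intensities were 71.1, 65.9, 68.0 and 68.8 in mutants, against 66.4, 61.1, 67.3 and 68.6 in controls. The log2 ratios of 0.10, 0.11, 0.02 and 0.00 therefore compare signals at background, and no fold is given. Cxcl11, the remaining ligand of Cxcr3, was above background in none of the 8 channels either.

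Cxcr3, the receptor of these ligands, was at the edge of detection. Its probe (A_51_P319022, chrX:98926920-98926979) was above background in 1 of 4 mutants and in none of the controls. The intensities were 84.4, 88.9, 84.9 and 87.3 in mutants, against 86.1, 76.8, 88.9 and 77.4 in controls, and the groups overlapped. No fold is given for Cxcr3 either. Genes of the cells that carry Cxcr3 were also low: of 8 T cell and NK cell markers, 1 was above background in every channel and Cd3g, Cd8a and Gzmb were above background in none. The summed intensity of these 8 markers was 731 to 755 in mutants and 703 to 765 in controls. The part of these cells in the Cxcl10 ratio was not tested.

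Ccl5, which attracts T cells and monocytes, was the member nearest to Cxcl10 among those not called. Its brighter probe (A_52_P638459, chr11:83339296-83339355) gave intensities of 283, 332, 224 and 267 in mutants, against 154, 126, 153 and 159 in controls. All 4 mutants lay above all 4 controls, by 1.86-fold on average. The log2 ratios were 0.88, 1.40, 0.55 and 0.75, with a mean of 0.89 ± 0.36 (SD, n = 4 pairs), a 95% interval of 0.58 to 1.21 and an adjusted p of 0.0547, just over the threshold.

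The second Ccl5 probe also separated the groups. This probe (A_51_P485312, chr11:83339447-83339502) gave 139, 155, 126 and 138 in mutants, against 87.6, 85.7, 89.0 and 89.3 in controls, and its mean log2 ratio was 0.66 ± 0.15. It was above background in all 4 mutants and in 2 of the 4 controls. Ccl5 passed the test in 9 of 18 alternatives and missed it in 9, with log2 ratios of 0.70 to 1.41 and adjusted p values of 0.00678 to 0.193. The highest of these ratios came from the processed signals. Cxcl10 had been picked for its high ratio, and the difference between Ccl5 and Cxcl10 was not tested.

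Ccl2, which draws monocytes through Ccr2, was barely above background. Its probe (A_51_P286737, chr11:81850650-81850709) was printed on 10 spots per array. The mean intensities were 101, 116, 116 and 107 in mutants, against 94.3, 95.9, 96.1 and 104.7 in controls, and the mutant of pair 1 was below the control of pair 4. The mean log2 ratio was 0.17 ± 0.12 (SD, n = 4 pairs), with a 95% interval of -0.01 to 0.35 and an adjusted p of 0.565. The interval leaves out a 1.28-fold or greater rise on this scale, but with processed signals the log2 ratio was 0.45 (adjusted p = 0.402). Ccr2 was above background in none of the 8 channels.

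**Figure D2:**
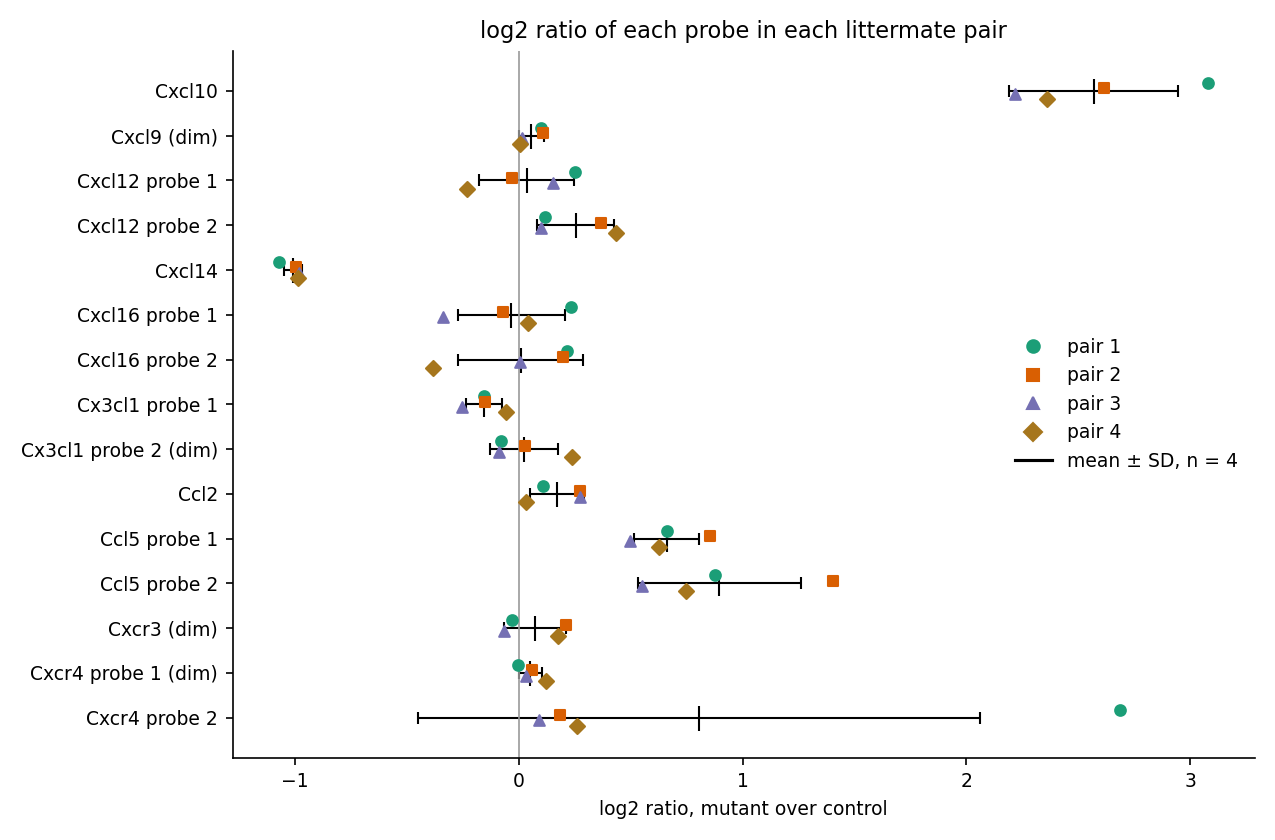
log2 ratio of mutant over control for each of the 15 member probes in each of the 4 littermate pairs, with a bar for the mean ± SD; "dim" marks probes that were not tested. Cxcl10 lies at 2.22 to 3.08 and Cxcl14 at -1.07 to -0.98, both Ccl5 probes lie above 0 in every pair, and 1 Cxcr4 probe reads 2.69 in pair 1 and 0.09 to 0.26 in the others.

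Cxcl14 was the one member called lower in mutants. It encodes a strongly conserved CXC chemokine that is made by neurons and epithelia. Its probe (A_51_P209183, chr13:56390078-56390137, minus strand) gave 2687, 2415, 2736 and 2715 in mutants, against 5644, 4814, 5407 and 5378 in controls. All 4 mutants lay below all 4 controls, and the ratios hardly varied between pairs. The log2 ratios were -1.07, -0.995, -0.983 and -0.986, with a mean of -1.01 ± 0.04 (SD, n = 4 pairs), so that Cxcl14 was 2.01-fold lower. The 95% interval ran from -1.15 to -0.86 and the adjusted p was 0.00529. Only 17 genes had a lower ratio.

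Unlike the value of Cxcl10, that of Cxcl14 came from a bright probe above background in all 8 channels. It passed the test in all 18 alternatives, with log2 ratios of -1.03 to -0.95 and adjusted p values of 0.000506 to 0.0404. The mean was -1.03 over the pairs with the mutant in Cy5 and -0.99 over those with the mutant in Cy3. Markers of astroglia, the cells in which a Gfap promoter is active, moved in both directions: of 8, Gfap and Aldh1l1 rose, and Slc1a2, Aqp4 and S100b fell, against 1.03% of all genes called. The summed intensity of the 8 was 112156 to 144907 in mutants and 145431 to 168375 in controls. The part of astroglial RNA in the Cxcl14 ratio was not tested.

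Cxcl12, which the meninges over the cerebellum secrete and which holds granule cell precursors near the surface through Cxcr4, did not pass the test. The brighter of its probes (A_51_P172502, chr6:117131227-117131286) gave 4873, 4302, 4994 and 3198 in mutants, against 4098, 4400, 4491 and 3761 in controls. The groups overlapped and the sign differed between pairs. The mean log2 ratio was 0.03 ± 0.21 (SD, n = 4 pairs), with a 95% interval of -0.13 to 0.20 and an adjusted p of 0.939. The other probe, matched to a different transcript (A_52_P685021, chr6:117124474-117124533), was higher in every mutant than in its littermate, with log2 ratios of 0.12, 0.37, 0.10 and 0.44 and a mean of 0.25 ± 0.17. The probes of Cxcl12 thus disagreed in pairs 2 and 4.

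Cxcr4, the receptor of Cxcl12, carried the widest spread of all members. Its brighter probe (A_52_P585124, chr1:130485079-130485138) gave 672, 137, 105.4 and 155 in mutants, against 104, 120, 99.1 and 129 in controls. The mutant of pair 1 stood alone, and in the other pairs littermates were nearly equal. The log2 ratios were 2.69, 0.19, 0.09 and 0.26, with a mean of 0.80 ± 1.26 (SD, n = 4 pairs), a 95% interval of -0.20 to 1.81 and an adjusted p of 0.671. With a pair left out, the fitted log2 ratio weighed the dye orders equally and was not the mean of the pairs left. It was 0.16 without pair 1. Without pair 3 it was 1.45 and Cxcr4 passed the test, but pair 1 was then the only pair with the mutant in Cy5. The dye term thus fitted pair 1 exactly, and its high value added nothing to the residual spread. The adjusted p was 0.426 or more in the other alternatives.

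The high Cxcr4 value stood on 1 spot whose surroundings were also bright. The local Cy5 background around that spot was 536.5 in pair 1, against 99.0 around the same spot in Cy5 in pair 3. The second Cxcr4 probe (A_52_P565353, chr1:130485659-130485718) gave 80.5 in the mutant of pair 1 and 80.8 in its control, and was above background in 1 of 4 mutants and 1 of 4 controls. The mutant of pair 1 was also the animal with the high neutrophil markers. Its summed meningeal and fibroblast markers were 17044, against 8548 to 10285 in the other mutants and 7185 to 10259 in the controls. Of these markers, Dcn, Lum and Col1a1 were higher in the mutant of all 4 pairs, a pattern held by 7.75% of all genes. Col1a2 was higher in pair 1 only, and none of the 4 was called. The part of the local background and of these cells in the Cxcr4 value was not tested. Ackr3, the atypical receptor of Cxcl12, gave -0.06 ± 0.27.

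Cxcl16, a membrane-bound ligand of Cxcr6, did not differ between the groups beyond its spread. Its brighter probe (A_52_P99888, chr11:70267780-70267839) gave 164, 160, 140 and 136 in mutants, against 141, 140, 140 and 178 in controls. The mean log2 ratio was 0.01 ± 0.28 (SD, n = 4 pairs), with a 95% interval of -0.27 to 0.29 and an adjusted p of 0.992. The other probe (A_51_P374203, chr11:70269521-70272262) gave 0.23, -0.07, -0.34 and 0.04. Both probes changed sign between pairs, and no direction is given.

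Cx3cl1, or fractalkine, is made by neurons and read by microglia through Cx3cr1. Its brighter probe (A_51_P196925, chr8:97306185-97306244) gave 8776, 8591, 7777 and 7668 in mutants, against 9777, 9550, 9277 and 7967 in controls. Each mutant was slightly dimmer than its littermate, and the groups overlapped. The mean log2 ratio was -0.15 ± 0.08 (SD, n = 4 pairs), with a 95% interval of -0.31 to -0.00 and an adjusted p of 0.521. The second probe (A_51_P205129, chr8:97296742-97296801) was above background in 1 of 4 mutants and in none of the controls. The receptor Cx3cr1 gave -0.01 ± 0.16 (adjusted p = 0.981). The summed intensity of the 9 microglial markers was 13467 to 17389 in mutants and 13692 to 14877 in controls, and none of the 9 was called or had an unadjusted p under 0.05.

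**Figure D3:**
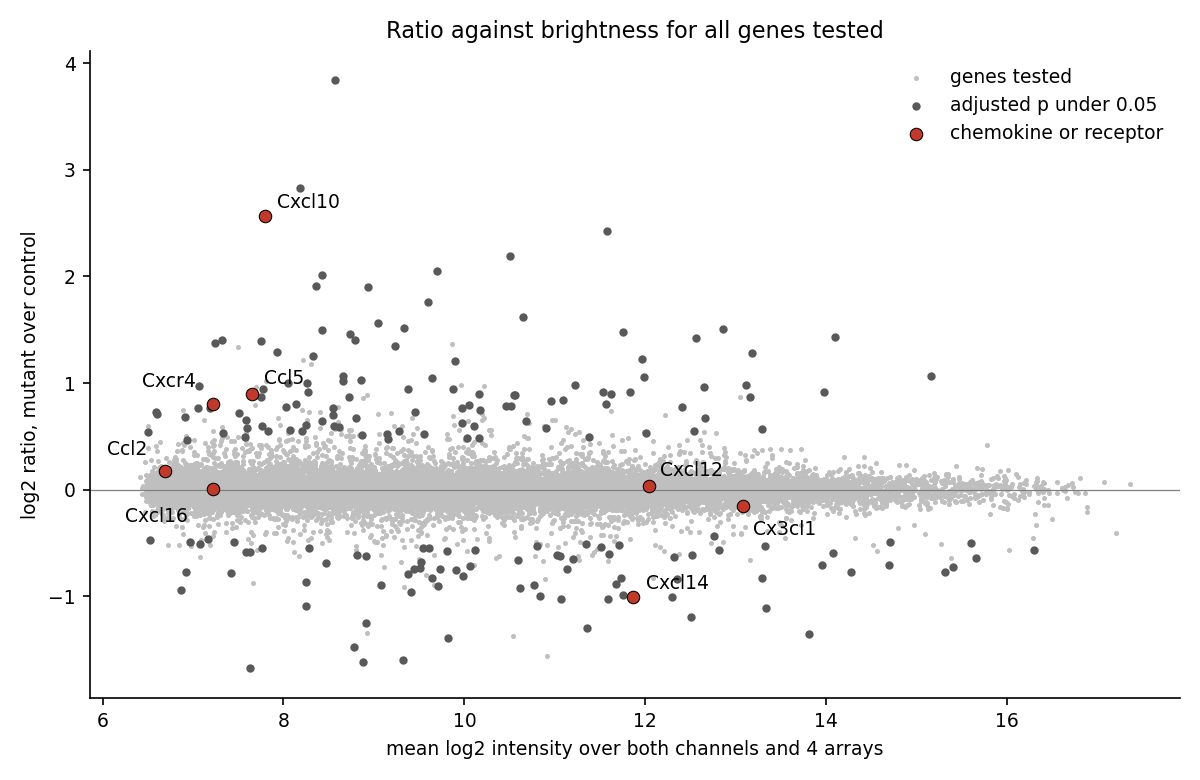
log2 ratio of mutant over control against mean brightness for the 18024 genes tested, with the 8 tested members marked. Cxcl10 stands at 2.57 among dim genes, Cxcl14 at -1.01 among bright genes, and Cx3cl1, Cxcl12, Cxcl16 and Ccl2 lie within 0.18 of 0.

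The rest of the family was examined to see whether Cxcl10 stood alone. Of 62 chemokine and receptor genes listed, 61 had a probe and 28 were tested. Cxcl10 was called higher, Cxcl14 was called lower and 26 were not called, with a median log2 ratio of 0.02 over the 28 and 0.00 over all genes. Among the 20 tested genes outside the member set, none was called and 1 had an unadjusted p under 0.05, against 9.39% of all genes. These 20 ran from -1.38 to 0.29, with a median of 0.00, and none was higher in all 4 pairs. So in this fit Cxcl10 was the single family gene called higher, while Ccl5 was higher in every pair without passing the test.

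Among ligands outside the set, Pf4, a platelet and macrophage chemokine, gave 0.17 ± 0.33 (adjusted p = 0.680). Ccl19, a ligand of Ccr7 that attracts lymphocytes and dendritic cells, gave -0.80 ± 0.65 (adjusted p = 0.364), with log2 ratios of -0.28, -0.25, -1.07 and -1.59. Without pair 2 it passed the test as lower, at a fitted -1.13, but pair 4 was then the only pair with the mutant in Cy3. The dye term thus fitted pair 4, the lowest value, exactly, and this value added nothing to the residual spread. Ccl19 missed the test in the other 17 alternatives. The other Ccl19 probe gave -0.48 ± 0.43. Of the atypical receptors, Ackr4 gave 0.11 ± 0.15 (adjusted p = 0.713) and Ackr2 gave -0.15 ± 0.26 (adjusted p = 0.785). Of the 33 family genes with a probe that were not tested, 26 were above background in no channel. The untested gene with the most mutant channels above background was Cxcl5, a neutrophil attractant, with 3 of 4 mutants and none of the controls and a log2 ratio of 0.32 ± 0.18 against controls at background. It was named after its values were seen. Those above background in no channel included Ccr7, Cxcr6, Cxcl1, Cxcl2 and Cxcl13.

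**Figure D4:**
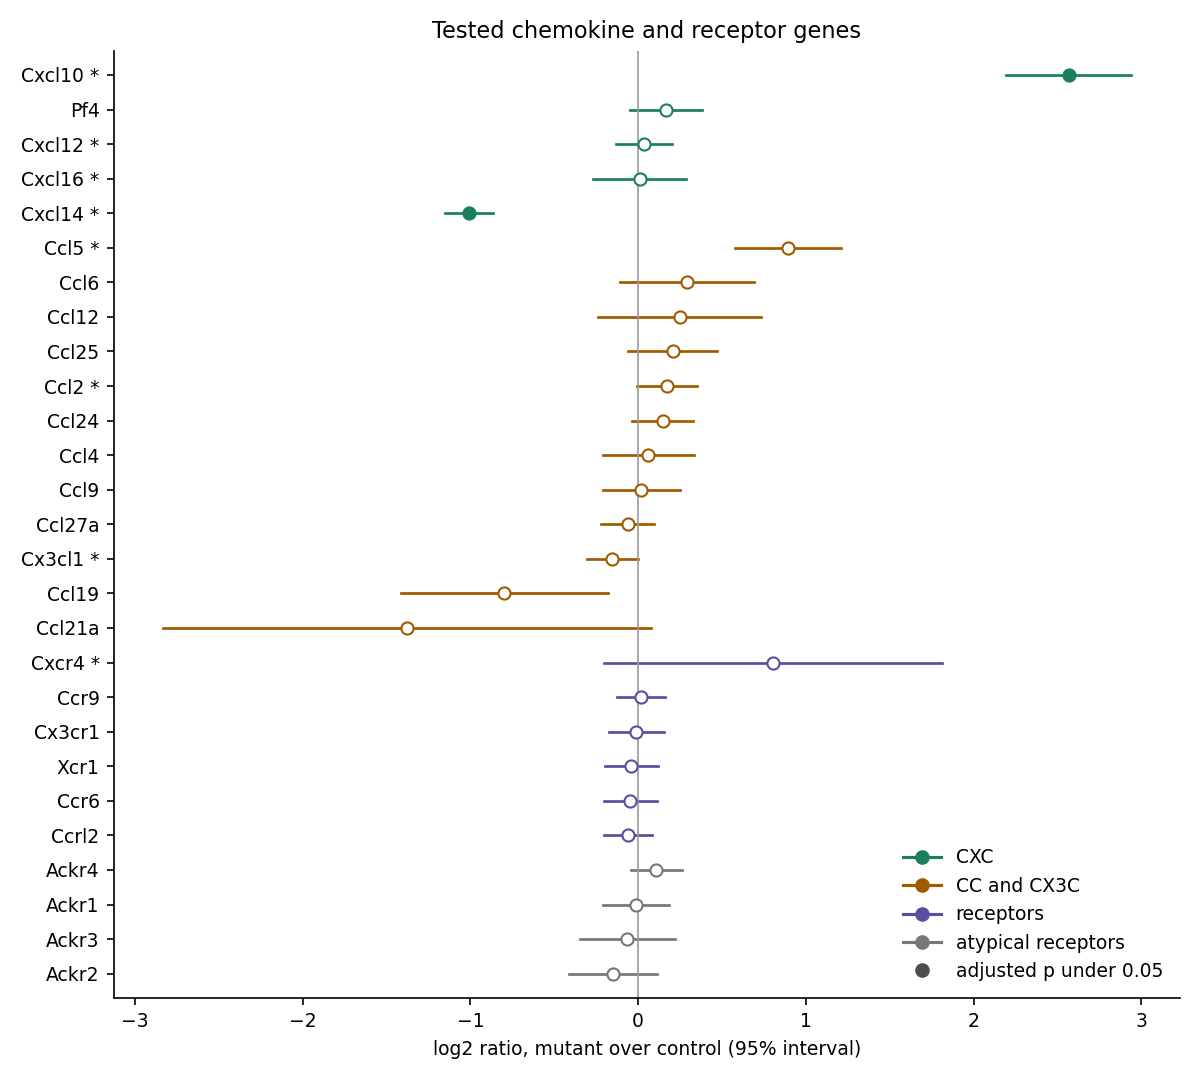
log2 ratio of mutant over control (points, with 95% intervals as bars, n = 4 pairs) of 27 of the 28 chemokine and receptor genes that could be tested, with members marked by an asterisk and genes called drawn filled. Cxcl10 (2.57) and Cxcl14 (-1.01) are the genes called, and the widest bars belong to Ccl21a and Cxcr4.

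Genes of the pathways known to switch on Cxcl10 were counted in the same fit. Over all 18024 genes, 1.03% were called, 9.39% had an unadjusted p under 0.05 and 50.9% had a ratio above 0. Of 16 tested genes of interferon signalling, none was called and 3 had an unadjusted p under 0.05, with a median log2 ratio of 0.01. Those with the smallest p were Socs1, a feedback inhibitor of interferon receptors, at -0.39 ± 0.17 (adjusted p = 0.147), and Socs3, which inhibits cytokine receptors of the Il6 family, at 0.40 ± 0.24 (adjusted p = 0.172). Of 24 tested interferon-induced genes, none was called, 4 had an unadjusted p under 0.05, all higher, and 19 had a ratio above 0. Their median was 0.13 and they ran from -0.24 to 0.38. Ifih1, a sensor of viral RNA, gave 0.26 ± 0.10, and Bst2, which tethers budding viruses, gave 0.23 ± 0.06 (adjusted p = 0.245 for each).

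Of 15 tested genes of the NF-kappaB pathway and its targets, 1 was called higher, 1 was called lower and 13 were not called, against 0.588% higher and 0.444% lower over all genes. An unadjusted p under 0.05 was held by 4 of the 15, and the median log2 ratio of the 15 was 0.08. Vcam1, an adhesion molecule for leukocytes, rose by 0.89 ± 0.16 (adjusted p = 0.00757), with log2 ratios of 0.81, 0.96, 0.71 and 1.08. Its adjusted p was 0.0535 without pair 1 and under 0.05 in the other alternatives. Of its other probes, A_52_P520495 was above background in 3 of 4 mutants and none of the controls and gave 0.23 ± 0.11. The probe A_52_P462332 was above background in no channel. Traf1, an adaptor of tumour necrosis factor receptors, fell by 1.62 ± 0.35 on the log2 scale (adjusted p = 0.0116), with log2 ratios of -1.82, -1.59, -1.13 and -1.92. Tnfaip3, a feedback inhibitor of NF-kappaB, gave 0.22 ± 0.14, and Relb, a subunit of it, gave 0.19 ± 0.09. Ifng, Ifnb1, Tnf and Il1b, which encode inducers of these pathways, were not tested, because their probes did not pass the filter on dim signals. Il6, listed with the NF-kappaB targets, did not pass it either.

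The genes whose 4 ratios lay nearest to those of Cxcl10 were chosen by the root mean square difference over the 4 pairs, among all 18024 genes. Among the 5 nearest were P4ha2, a collagen prolyl hydroxylase subunit, at 2.43 ± 0.21 (distance 0.490), and Tnc, the matrix glycoprotein tenascin C, at 2.19 ± 0.27 (distance 0.502). The other tested Tnc probes gave 0.64 ± 0.38 and 0.86 ± 0.23, and the mean over its probes was 1.23. Frem2, a basement membrane protein, had a distance of 0.681 by its brighter probe, at 2.01 ± 0.13, while its other probe gave 0.96 ± 0.14. Greb1l had a distance of 0.757. No chemokine or receptor was among the 5 nearest, which the means had already fixed. After Cxcl10, the highest mean of a tested family gene was 0.89, for Ccl5.

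**Figure D5:**
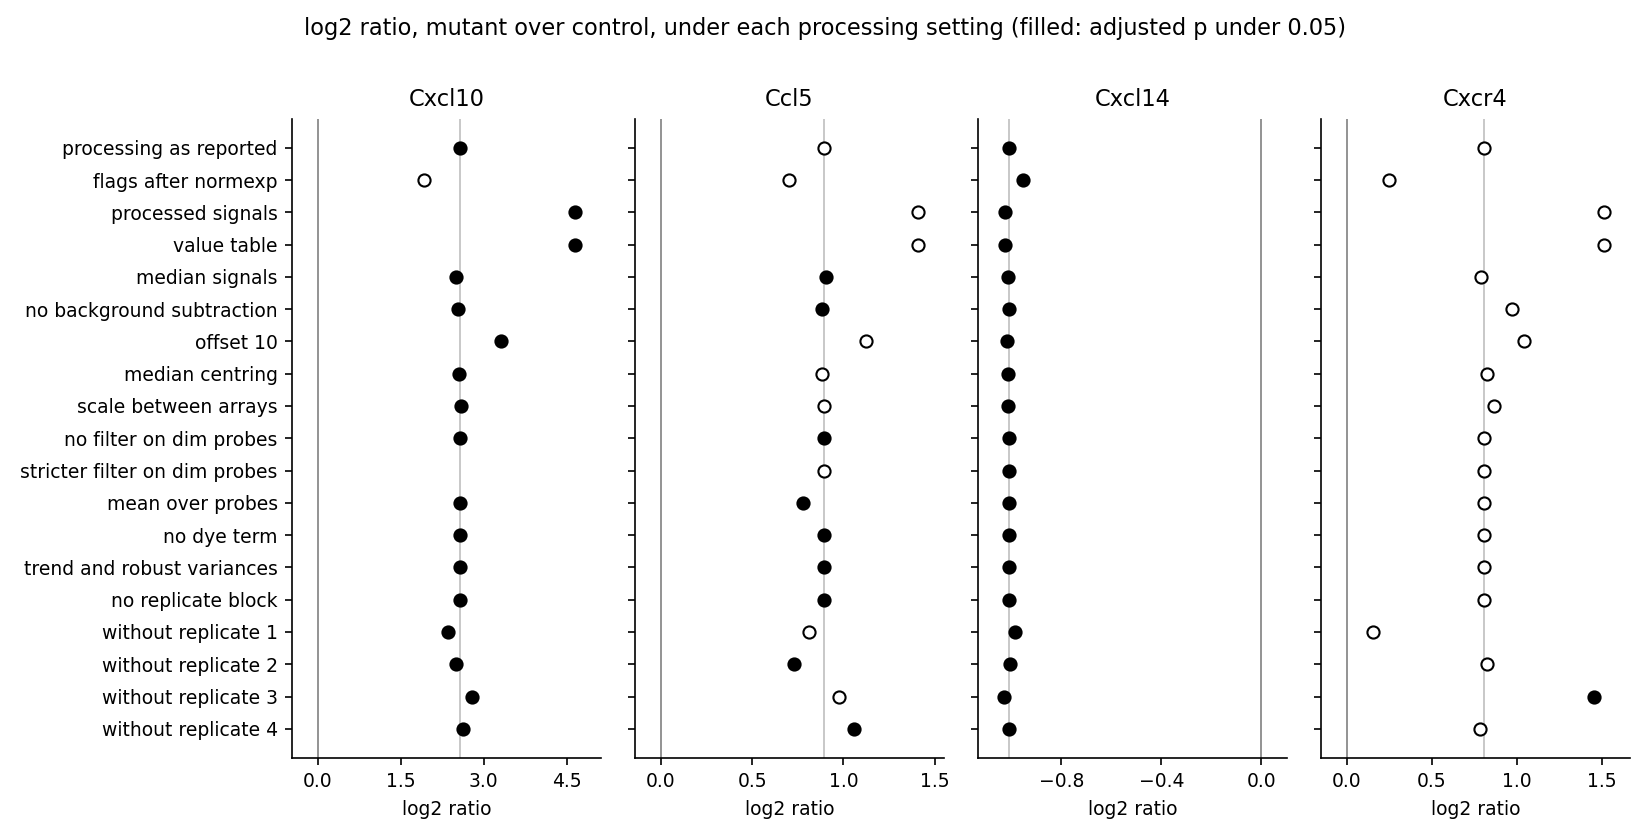
log2 ratio of mutant over control of Cxcl10, Cxcl14, Ccl5 and Cxcr4 under the processing used and each of its alternatives, with filled points where the gene passed the test at an adjusted p under 0.05. Cxcl10 lies between 1.93 and 4.66 and Cxcl14 between -1.03 and -0.95, while Ccl5 crosses the threshold in 9 of 18 alternatives.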

How the data were processed

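Per the file headers, the deposited files are scanner output of Agilent Feature Extraction 10.5.1.1, with probe coordinates of build mm9. They give each spot's intensity and its local background in Cy3 and Cy5, on a linear scale. The deposited log10 ratios of Cy5 over Cy3 were made by the same software from its own processed intensities. The deposited value table equals them to within 4.842e-06, with the sign turned for replicates 2 and 4, and served as an alternative. All 4 arrays lay on 1 slide.

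In limma 3.58.1 (R 4.3.3, with data.table version 1.17.8 and jsonlite 2.0.0; statmod 1.5.0), mean intensities were corrected with normexp and an offset of 50, after leaving out the 143 to 248 spots per array with an outlier flag. Ratios were loess-normalized within arrays, spots of a probe were averaged, and the brightest tested probe stood for a gene. A tested probe needed values from 3 arrays or more, the dye swap included. Of the probes, 24844 were named by looking up their accession in RefSeq and 16330 kept the name given in the deposited files. The fit had a dye and a genotype term, 2 residual and 3.37 prior degrees of freedom, and Benjamini-Hochberg adjustment over 18024 genes. The script was tested on simulated data. Each ratio compares littermates on 1 array, so the pairing comes from the design, and it holds shared spot effects too. The number of arrays limits the precision.

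The members, lists, order of the flags and rule for named genes (Dicer1, the members, the 5 genes nearest to Cxcl10, and of each list the called genes and the 2 others with the smallest p) were chosen with earlier results of these data known. Ackr3, Cx3cr1, the markers and the genes named as not detected were named in addition. Of the genes that this rule names, 2 are not reported here. Exons and UTRs were not assigned to probes, since no annotation of build mm9 was used here.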

Additional observations from a re-analysis of the deposited data

Results flagged for a closer look

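Of 34 sets of 4 ratios checked for a value far from the other 3, 2 had one; chance flags about 1 in 20 such sets. For Cxcr4 (probe A_52_P585124), the log2 ratio of mutant over control was 2.69 in pair 1 and 0.09 to 0.26 in the other pairs. For Cxcl14 (probe A_51_P209183), it was -1.07 in pair 1 and -0.995 to -0.983 in the others, a small distance in a gene with very little spread. Neither cause was tested.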

How the results depend on the processing

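Over 18 alternatives, the genes called higher numbered 44 to 215 and those called lower 12 to 127 when 1 replicate was left out, against 106 and 80 with all 4. They numbered 50 and 32 with the flags after normexp, the setting in which the fitted background of array 1 moved far. The processed signals and the value table each gave 53 lower. Without replicate 1, 78.6% of the called genes were higher in mutants, against 57.0% with all 4. Cxcl10 and Cxcl14 were both called in 16 alternatives. Cxcl10 missed with the flags after normexp (1.93, adjusted p = 0.0580) and was not tested under the stricter filter on dim probes, which left Cxcl14 as the single member called. With 1 replicate left out, 1 dye order held a single pair, which the dye term fitted exactly. The fitted ratio weighed both dye orders equally, so it was not the mean of the pairs left. In these fits the log2 ratio was 2.35 to 2.78 for Cxcl10 and -1.03 to -0.99 for Cxcl14.

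Ccl5 passed the test with median signals (0.90), without background subtraction (0.88), as the mean over probes (0.78), and at 0.89 with no filter on dim probes, no dye term or trend and robust variances. It also passed at 0.89 with no replicate block (adjusted p = 0.0166), where the channels of an array were fitted as separate samples and no other member's call changed. With 1 replicate left out it was 0.73 to 1.06. Cxcl16 changed sign with the flags after normexp (-0.041), median signals (-0.017), median centring (-0.0036) and the mean over probes (-0.013), and ran from -0.14 to 0.15 with 1 replicate left out. On leaving out 1 replicate, Cxcl12 ran from -0.016 to 0.085, Cxcr4 from 0.16 to 1.45 and Dicer1 from -0.054 to 0.13, and Dicer1 was -0.013 as the mean over probes. Cx3cl1 and Ccl2 kept their direction and missed the test in all 18. The cause was not tested. Dim signals limit the values of Cxcl10, Cxcl9, Ccl2, Cxcr3, Ccl5, Cxcr4 and Cxcl16. With processed signals Ccl5 was 1.41 and Cxcr4 was 1.51, against 0.89 and 0.80 with the processing used.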

Other observations

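Ccl21a, a lymphoid chemokine whose probe was not checked against near-identical gene copies, was the family gene with the lowest mean log2 ratio and the widest spread, at -1.38 ± 1.54 (SD, n = 4 pairs, adjusted p = 0.566). Its log2 ratios were -0.21 and 0.09 in pairs 1 and 2 and -2.38 and -3.00 in pairs 3 and 4. Ccl19 was also lowest in pairs 3 and 4. Ccl21a was named after its values were seen.

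In pair 1 the neutrophil genes S100a8, S100a9 and Mpo had log2 ratios of 2.70, 2.80 and 1.55, and the collagen gene Col1a1 had 2.06. In the other pairs these genes lay between -0.64 and 0.20. They were named after their values were seen.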
